A study of Mus musculus with 20 samples.

Results

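Piwil1, Piwil2 and Piwil4 are the PIWI genes of the mouse, taken here by name from a table of 23366 genes, so that 3 of 23366 rows are described. They were followed in RNA from wild-type C57Bl/6J mice at 5 stages: whole testis on days 1, 3 and 7 after birth, a fraction labelled as mixed leptotene and zygotene spermatocytes, and a fraction labelled as pachytene spermatocytes. Both fractions came from mice of 70 to 80 days by STA-PUT, which sorts cells by size as they settle under gravity, and were judged by microscopy. Each stage had 2 biological replicates, with no treatment or mutation in any of the 10 libraries. A whole testis mixes germ cells with Sertoli, Leydig and other somatic cells, whereas the fractions are mostly germ cells. In a bulk sample fewer cells of a type and less RNA per cell cannot be told apart.

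PIWI proteins are Argonautes of the germ line that carry piRNAs, small RNAs that guide them to transposon transcripts and other targets. Piwil2 encodes MILI, a cytoplasmic slicer present from the fetal gonocyte through to the spermatid. Piwil4 encodes MIWI2, which enters the nucleus of gonocytes and directs DNA methylation to transposons around birth. Piwil1 encodes MIWI, which binds the abundant piRNAs of pachytene spermatocytes and round spermatids. Meiosis begins after the first week of life, so a testis on day 7 holds spermatogonia but few spermatocytes.

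Reads counted on genes came to between 3597360 and 22181395 per library. Levels below are CPM, read counts set against library size after the libraries were scaled to each other by TMM, and 1 read was worth 0.0333 to 0.486 CPM. Markers of the labelled cell types were detected. The 7 Sertoli markers in the table summed to 39.3 to 240.3 CPM in the 4 fraction libraries, against 3274 to 4490 CPM in whole testis. The 6 Leydig markers summed to 5.61 to 36.5 CPM in the fractions, against 366 to 1024 CPM in whole testis. The 10 spermatid markers, among them the protamine Prm2 and the sperm tail gene Akap4, summed to 9020 and 5756 CPM in the pachytene fraction and to 67002 and 72092 CPM in the leptotene/zygotene fraction. All 10 had reads in each of these 4 libraries. The 7 leptotene and zygotene markers, among them the synaptonemal genes Sycp1 and Sycp3, summed to 327 and 599 CPM in the pachytene fraction and to 159 and 272 CPM in the leptotene/zygotene fraction. Of this list Dmc1 and Prdm9 went the other way, with lower means in pachytene, while the rest had higher means there. Dmc1 was at 9.73 and 4.91 CPM in leptotene/zygotene and at 5.29 and 1.79 CPM in pachytene. The 7 pachytene markers summed to 11625 and 11622 CPM in the pachytene fraction. In the leptotene/zygotene fraction they summed to 14792 and 15846 CPM. Each fraction thus held a lower sum of its own markers than the other fraction did, and the leptotene/zygotene fraction held the highest spermatid sum. Such sums rest mostly on the most abundant genes. Gene by gene, 2 of the 7 pachytene markers were called higher in pachytene against leptotene/zygotene and 0 lower, by the edgeR test described below. The 7 leptotene and zygotene markers had the same counts. Of all 16872 genes tested 9.03% were called higher at that step and 13.2% lower. Each value given below for a fraction belongs to that labelled fraction. The plot of marker sums shows these lists by library.

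**Figure D1:**
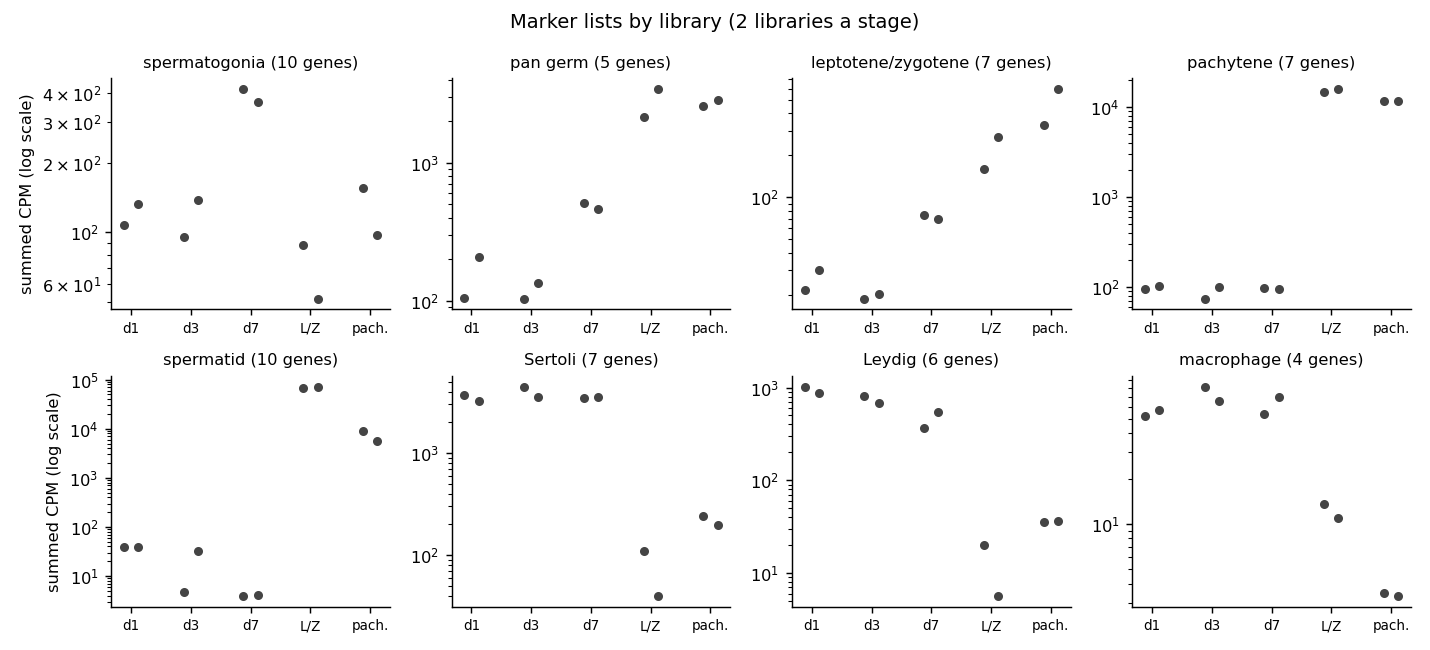
Summed CPM (log scale) of 8 marker lists in each of the 10 libraries (points, 2 a stage; d1, d3 and d7 are whole testis, L/Z and pach. the fractions). The spermatid sum is highest in the leptotene/zygotene fraction, at 67002 and 72092 CPM, and the Sertoli sum drops to 240.3 CPM or less in both fractions.

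The 3 genes differed in direction between the fractions and young testis. On day 7 against day 3 Piwil1 and Piwil2 rose, so that 2 of the 3 genes were called higher, where 0.931% of the 16872 genes tested were (0.563% lower, 1.49% in either direction). Of the 3 genes 1 rose and 1 fell in the leptotene/zygotene fraction against day 7 testis, where 36.5% of all genes were called higher and 42% lower, 78.5% in all, so a change at that step was common to most of the genes tested. With plain library sizes that split of 6163 higher and 7082 lower genes became 4183 and 9928. Piwil1 and Piwil2 rose again in the pachytene fraction against leptotene/zygotene, where 9.03% of all genes were called higher and 13.2% lower, 22.2% in all. With plain library sizes the split of 1524 higher and 2220 lower genes became 3729 and 1107, and the calls of Piwil1 and Piwil2 held. On day 3 against day 1 none of the 3 passed, as for all genes (0% of 16872 called by edgeR, 1097 with an unadjusted p under 0.05 and 79 called by DESeq2). On day 7 against day 1 none passed either, where 1.08% of all genes were called higher and 2.28% lower, 3.36% in all. Calls rest on edgeR's quasi-likelihood test with Benjamini-Hochberg adjustment over all genes at 0.05, and the comparisons that share a stage share its libraries. The plots of levels and of changes show these values.

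**Figure D2:**
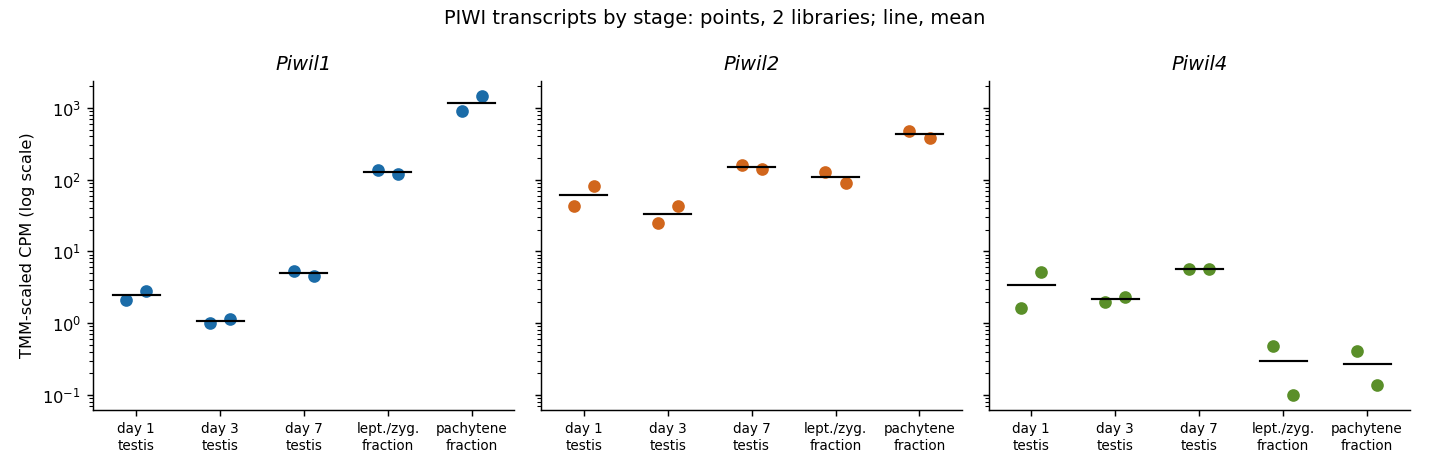
CPM (log scale) of the 3 PIWI genes in each of the 10 libraries (points) with the mean of each stage (line). Piwil1 climbs to 895 and 1467 CPM in pachytene, Piwil2 stays between 25.1 and 470 CPM throughout, and Piwil4 drops to 1 or 2 reads a library in both fractions.

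**Figure D3:**
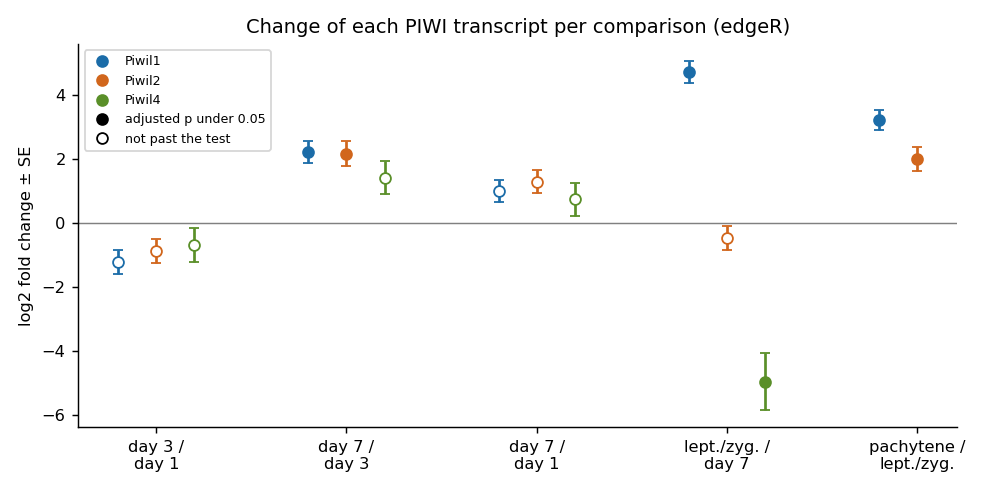
Log2 fold change ± SE of each PIWI gene in 5 comparisons, the later stage over the earlier, with filled points past the edgeR test at an adjusted p of 0.05. Piwil4 has no point for pachytene over leptotene/zygotene, where both groups held 3 reads or fewer. Against day 7 testis, Piwil1, Piwil2 and Piwil4 stand at 4.70, -0.48 and -4.95 in the leptotene/zygotene fraction.

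Piwil1 was scarce in young testis and abundant in pachytene. It was at 2.10 and 2.85 CPM on day 1, 0.999 and 1.14 CPM on day 3, and 5.41 and 4.48 CPM on day 7. The fractions had 137 and 120 CPM in leptotene/zygotene and 895 and 1467 CPM in pachytene. No libraries of neighbouring stages overlapped in the order pachytene, leptotene/zygotene, day 7, day 1, day 3. The rise to pachytene from leptotene/zygotene was 9.19-fold (log2 fold change 3.20 ± 0.31, edgeR adjusted p = 0.000757), and that to leptotene/zygotene from day 7 testis was 25.9-fold (4.70 ± 0.34, adjusted p = 1.62e-06). Its rise on day 7 against day 3 was 2.22 ± 0.35 (adjusted p = 0.0225). That call was lost without any 1 of the 6 whole-testis libraries, with an adjusted p of 0.0734 to 0.332. On day 3 against day 1 the log2 fold change was -1.24 ± 0.37 (unadjusted p = 0.00831, adjusted p = 0.584), and on day 7 against day 1 it was 0.98 ± 0.34 (adjusted p = 0.143).

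The young testis levels rest on few reads. Piwil1 had 17 and 33 reads on day 1, 30 and 14 on day 3 and 98 and 73 on day 7. Prm2, a transcript of late spermatids that a newborn testis does not hold, had 73 and 108 reads on day 1, 1 and 81 on day 3, and 0 and 1 on day 7. The first day 3 library, with a single Prm2 read, had Piwil1 at 0.999 CPM, close to the 1.14 CPM of the second, which had 81. The part of spermatid reads in the Piwil1 levels was not tested.

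The start of Piwil1 is shown beside that of Piwil4, the pair with opposite patterns in the fractions, since MYBL1 (A-MYB), the activator of pachytene piRNA loci, binds a MYB core. RefSeq windows (GRCm38.p6, 250 bases before to 50 after the start) were matched for 2 of the 3 genes. Capitals mark AACNG on either strand, the core searched for. Each window reads 5′ to 3′ along its gene, at chr5:128735996-128736295 on the plus strand for Piwil1 and chr9:14740623-14740922 on the minus strand for Piwil4.
Piwil1: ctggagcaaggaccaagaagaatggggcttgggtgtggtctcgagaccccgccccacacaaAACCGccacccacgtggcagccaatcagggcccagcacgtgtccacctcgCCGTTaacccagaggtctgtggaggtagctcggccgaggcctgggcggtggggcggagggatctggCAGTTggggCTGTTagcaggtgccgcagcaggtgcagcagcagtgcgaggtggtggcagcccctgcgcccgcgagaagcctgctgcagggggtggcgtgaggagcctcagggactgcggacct
Piwil4: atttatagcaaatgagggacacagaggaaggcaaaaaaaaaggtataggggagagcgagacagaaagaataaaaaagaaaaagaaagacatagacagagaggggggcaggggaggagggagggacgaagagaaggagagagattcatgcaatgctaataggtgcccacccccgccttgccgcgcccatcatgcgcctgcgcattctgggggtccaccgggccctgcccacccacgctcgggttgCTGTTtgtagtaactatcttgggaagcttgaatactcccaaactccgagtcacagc

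The Piwil1 window held 4 matches, 1 on the strand of the gene and 3 on the other, and 11.8% of 32851 windows held as many or more. The Piwil4 window held 1, and 80.3% of windows held 1 or more. A window at a second, downstream start of Piwil4 held 3, and 27.0% of windows held as many or more. CG pairs numbered 18 and 11 in the windows shown, against a median of 7 over all, and 29.7% and 41.4% of windows held as many or more. These matches describe letters, not binding. Mybl1 itself was at 24.9 and 26.5 CPM on day 1, 17.6 and 28.7 CPM on day 3, 29.1 and 25.6 CPM on day 7, 77.3 and 77.4 CPM in leptotene/zygotene, and 163 and 158 CPM in pachytene. It rose by 1.05 ± 0.27 in pachytene against leptotene/zygotene (edgeR adjusted p = 0.0225) and by 1.5 ± 0.27 in leptotene/zygotene against day 7 (adjusted p = 0.000611). Piwil1 reads per Mybl1 read were 0.0958 ± 0.0165, 0.0483 ± 0.0121, 0.181 ± 0.00716, 1.66 ± 0.154 and 7.40 ± 2.68 over the stages from day 1 to pachytene (SD, n = 2 each).

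Piwil2 was present at every stage. It was at 42.3 and 80.9 CPM on day 1, 25.1 and 42.3 CPM on day 3, and 159 and 141 CPM on day 7. The fractions had 127 and 89.6 CPM in leptotene/zygotene and 470 and 386 CPM in pachytene. In the order pachytene, day 7, leptotene/zygotene, day 1, day 3, libraries overlapped only between days 1 and 3. Piwil2 rose 3.97-fold in pachytene against leptotene/zygotene (log2 fold change 1.99 ± 0.38, edgeR adjusted p = 0.00646) and by 2.16 ± 0.38 on day 7 against day 3 (adjusted p = 0.0319). The day 7 call was lost without any 1 of the 6 whole-testis libraries, with an adjusted p of 0.0563 to 0.332, and with upper-quartile scaling (adjusted p = 0.052).

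In leptotene/zygotene against day 7 testis Piwil2 had a log2 fold change of -0.48 ± 0.37 (edgeR adjusted p = 0.249). Without any scaling beyond library size the value was -1.84 (adjusted p = 0.00164), where the median of all genes lay at -1.71, against -0.31 with TMM. The spermatid sum stood at 67002 and 72092 CPM in that fraction, against 3.86 and 4.18 CPM in day 7 testis, and its part in the Piwil1 and Piwil2 levels was not tested. On day 3 against day 1 the log2 fold change of Piwil2 was -0.88 ± 0.37 (edgeR unadjusted p = 0.0391, adjusted p = 0.724), and on day 7 against day 1 it was 1.28 ± 0.37 (adjusted p = 0.0897).

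Piwil4 was low in young testis and all but gone from the fractions. It was at 1.60 and 5.09 CPM on day 1, 2.0 and 2.28 CPM on day 3, and 5.63 and 5.71 CPM on day 7. The fractions held 1 and 1 reads in leptotene/zygotene (0.486 and 0.100 CPM) and 2 and 1 reads in pachytene (0.407 and 0.138 CPM). Libraries overlapped between days 1 and 3 and between the fractions, but not between day 7 and day 1 or between day 3 and leptotene/zygotene. At the day 7 mean, 11.7 and 56.6 reads would have been counted in the leptotene/zygotene libraries and 27.9 and 41.2 in the pachytene libraries. The ratio of leptotene/zygotene to day 7 levels was 0.0293 (exact 95% counting interval 0.00353 to 0.107), and the edgeR log2 fold change was -4.95 ± 0.89 (adjusted p = 0.000556). That value became -3.54 with the second leptotene/zygotene library left out and -5.70 with the first left out, and with plain library sizes it was -6.30, each past the test. Between the fractions no fold is given, since both held 3 reads or fewer.

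Among the testis stages Piwil4 did not pass the test, with a log2 fold change of 1.41 ± 0.52 on day 7 against day 3 (edgeR adjusted p = 0.239), -0.68 ± 0.53 on day 3 against day 1 (adjusted p = 0.907) and 0.73 ± 0.52 on day 7 against day 1 (adjusted p = 0.539). The day 3 against day 1 value rests on the second day 1 library: without it the log2 fold change was 0.54. Both day 7 libraries were above both day 1 libraries, beside spermatogonial markers (10 genes, among them the stem cell factor receptor Kit) that summed to 418 and 368 CPM on day 7, against 107 and 132 CPM on day 1. In the leptotene/zygotene fraction those 10 genes summed to 88.0 and 51.6 CPM, all with reads. Of them 7 fell against day 7 and 1 rose, where 42% of all genes were called lower and 36.5% higher. Id4 went the other way from Kit, with means of 9.62 CPM on day 7, 17.2 CPM in leptotene/zygotene and 82.7 CPM in pachytene. In the pachytene fraction the 10 genes summed to 156 and 97.3 CPM. The part of spermatogonia in the Piwil4 levels was not tested.

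The balance of the 3 transcripts differed between young testis and the fractions. Piwil2 made up 91.5% ± 0.629, 90.9% ± 2.26 and 93.4% ± 0.188 of PIWI reads on days 1, 3 and 7, 45.3% ± 3.77 in leptotene/zygotene and 27.6% ± 9.61 in pachytene (SD, n = 2 each). Piwil1 held 3.88% ± 0.957, 3.02% ± 0.755 and 3.07% ± 0.147 in testis, 54.6% ± 3.86 in leptotene/zygotene and 72.4% ± 9.63 in pachytene. Piwil4 held 4.61% ± 1.59, 6.05% ± 1.51 and 3.54% ± 0.335 in testis and 0.184% or less in each fraction library. These shares are of reads and not per length of transcript, so they compare stages and not genes. They do not depend on how libraries are scaled, but with 2 libraries against 2 an exact permutation test cannot go below p = 0.33, so none was run.

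Within libraries, Piwil1 reads per Piwil2 read were alike in young testis and far higher in the fractions. The ratio was 0.0424 ± 0.0102 on day 1, 0.0334 ± 0.00913 on day 3 and 0.0329 ± 0.00151 on day 7 (SD, n = 2 each). It was 1.21 ± 0.186 in leptotene/zygotene and 2.85 ± 1.34 in pachytene, and no fraction library overlapped a testis library. The ratio was thus 36.9 times higher in leptotene/zygotene than on day 7 and 2.36 times higher in pachytene than in leptotene/zygotene, where the libraries did not overlap.

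Levels in whole testis can also be read against germ cell markers of the same library. A list of 5 such genes (Ddx4, Dazl, Dnd1, Mael and Tex101) summed to 514 and 466 CPM on day 7, against 103 and 135 CPM on day 3. Of the 5, 3 passed on day 7 against day 3, all higher: Ddx4, the helicase of the cytoplasmic granule called nuage (log2 fold change 1.90 ± 0.34, edgeR adjusted p = 0.0348), Dnd1 (1.86 ± 0.32) and Tex101 (1.61 ± 0.31). Dazl, an RNA-binding translation factor of germ cells, had 2.29 ± 0.55 (adjusted p = 0.079). Over all genes 0.931% were called higher and 0.563% lower at that step. In leptotene/zygotene against day 7 the 5 genes split into 3 higher and 2 lower. Of all genes 36.5% were called higher there and 42% lower. Ddx4 was higher by 3.17 ± 0.36 (edgeR adjusted p = 2.62e-05) and Dazl lower, at -2.00 ± 0.56 (adjusted p = 0.00773). Ddx4 was at 24.7 and 44.9 CPM on day 1, 22.3 and 32.9 CPM on day 3, 109 and 96.8 CPM on day 7, 800.2 and 1055 CPM in leptotene/zygotene, and 938 and 919 CPM in pachytene. Dazl was at 48.6 and 98.3 CPM on day 1, 47.6 and 67.5 CPM on day 3, 292 and 271 CPM on day 7, 108 and 35.5 CPM in leptotene/zygotene, and 149 and 74.5 CPM in pachytene. Dazl was added as a denominator after the values were seen.

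Between days 7 and 3 Piwil1 and Piwil2 differed little against either marker. Piwil1 per Ddx4 read was 0.0480 ± 0.00242 on day 7 and 0.0397 ± 0.00721 on day 3, and per Dazl read 0.0175 ± 0.00137 on day 7 and 0.0189 ± 0.00291 on day 3 (SD, n = 2 each). Piwil2 per Ddx4 read was 1.46 ± 0.00646 on day 7 and 1.21 ± 0.114 on day 3, and per Dazl read 0.533 ± 0.0172 on day 7 and 0.577 ± 0.0707 on day 3. The day 7 libraries lay above those of day 3 per Ddx4 read and overlapped them per Dazl read. The part of germ cell number in the day 7 rises of Piwil1 and Piwil2 was not tested.

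In the fractions the direction for Piwil2 depended on the marker. Piwil2 per Ddx4 read was 1.46 ± 0.00646 on day 7, 0.122 ± 0.0521 in leptotene/zygotene and 0.460 ± 0.0573 in pachytene, so lower in both fractions than in day 7 testis. Per Dazl read it was 0.533 ± 0.0172 on day 7, 1.85 ± 0.958 in leptotene/zygotene and 4.16 ± 1.43 in pachytene, so higher in both (SD, n = 2 each). Piwil1 was higher in both fractions than on day 7 against either marker, at 1.28 ± 0.454 per Ddx4 read and 12.9 ± 9.69 per Dazl read in pachytene, and 0.143 ± 0.0405 and 2.33 ± 1.5 in leptotene/zygotene. Piwil4 was lower on day 7 than in all 4 libraries of days 1 and 3 against either marker, at 0.0554 ± 0.00511 per Ddx4 read and 0.0202 ± 0.0013 per Dazl read, while in CPM day 7 was highest. The plot of ratios shows these denominators.

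**Figure D4:**
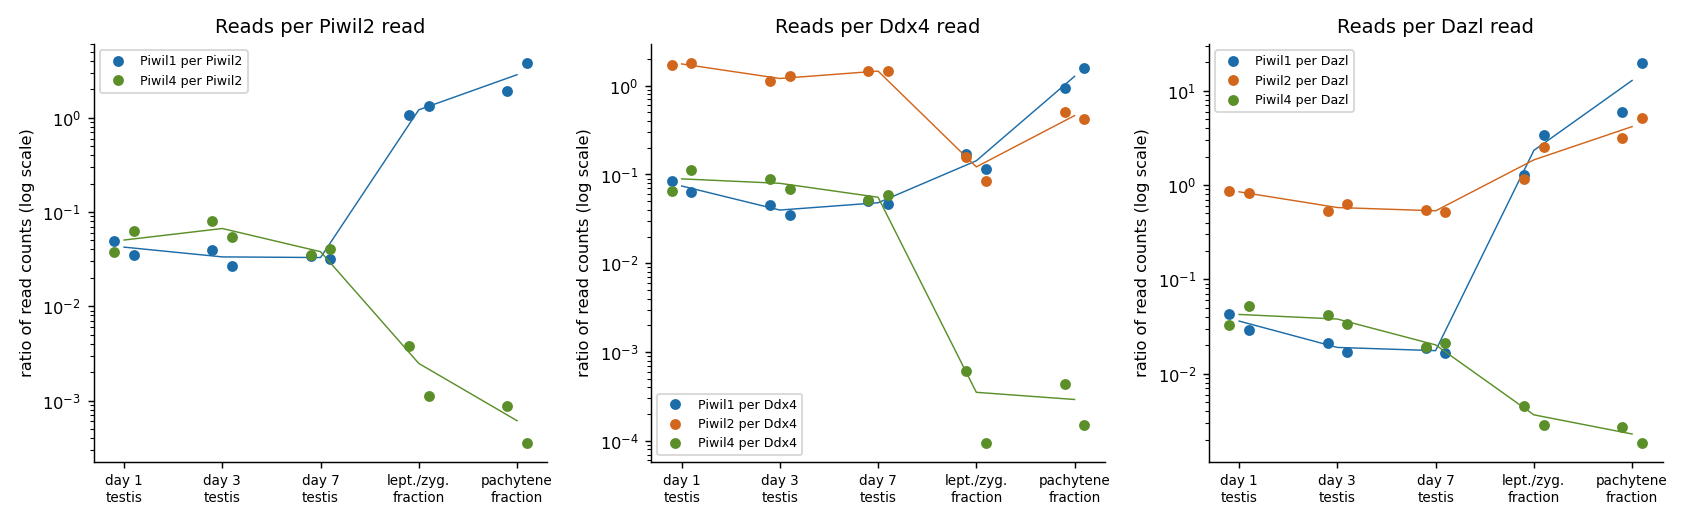
Ratios of read counts within each library (log scale; points, 2 libraries a stage; lines join stage means), per Piwil2 read on the left, per Ddx4 read in the middle and per Dazl read on the right. Piwil1 per Piwil2 lies at 0.0329 to 0.0424 over days 1 to 7 and at 1.21 and 2.85 in the fractions, and Piwil2 is lower in the fractions than on day 7 per Ddx4 read but higher per Dazl read.

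The partners of PIWI proteins were read from a list of 27 piRNA pathway genes, of which 26 were in the table and all 26 were tested. Ddx4 and Mael belong both to this list and to the germ cell markers above, so the calls of the lists are not separate. Ddx4 is called higher on day 7 against day 3 in both lists. On day 7 against day 3, 10 rose and none fell, with a median log2 fold change of 1.74, against -0.02 for all genes tested, of which 0.931% were called higher and 0.563% lower. Of the 13 nuage and Tudor-domain genes 7 rose, among them Tdrd1, a Tudor protein that binds MILI (2.29 ± 0.37, edgeR adjusted p = 0.0256), and Fkbp6, a chaperone partner in piRNA loading (2.19 ± 0.31). Of 4 processing genes 2 rose: Henmt1, which methylates the 3′ ends of piRNAs (3.17 ± 0.36, adjusted p = 0.00921), and Mov10l1, the helicase that feeds precursors to cleavage (2.25 ± 0.35, adjusted p = 0.0225). None of the 4 genes of nuclear silencing passed. Tex15, a partner of MIWI2 in silencing, had a log2 fold change of 1.90 ± 0.45 (edgeR adjusted p = 0.0751), Morc1 1.79 ± 0.47 (adjusted p = 0.1) and Mael 1.56 ± 0.43 (adjusted p = 0.115), each positive like the pathway genes called. Dnmt3l, the DNA methylation cofactor that acts with MIWI2 in gonocytes, had -1.72 ± 0.85 (adjusted p = 0.406). The count of 10 fell without any 1 of the 6 whole-testis libraries and was higher without either leptotene/zygotene library. Without the first day 3 library the direction called was lower. Calls over all genes also fell or rose in these fits, except that they did not fall without the second day 3 library.

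Against day 1, 7 of the 26 genes rose on day 7 and 2 fell, with a median of 1.29 against 0 for all genes, of which 1.08% were called higher and 2.28% lower. Dnmt3l fell by 3.76 ± 0.84 (edgeR adjusted p = 0.0443) and Tdrd6, a Tudor scaffold of the chromatoid body, by 3.67 ± 0.74 (adjusted p = 0.0336), while Mov10l1 rose by 2.49 ± 0.36 and Tdrd12, a Tudor helicase, by 2.26 ± 0.42. Tdrd6 was at 5.79 and 9.23 CPM on day 1, 1.10 and 5.45 CPM on day 3 and 0.497 and 0.676 CPM on day 7, beside Prm2 at 9.0 and 9.32 CPM, 0.0333 and 6.59 CPM, and 0 and 0.0614 CPM in the same libraries. The part of spermatid reads in the fall of Tdrd6 was not tested. Calls were lost once a day 1 or a day 7 library was left out, whichever of the 4 it was, for the list genes as for all genes tested. More were called without either leptotene/zygotene library, in the list and over all genes. Between days 3 and 1 none passed in edgeR, with 4 at an unadjusted p under 0.05 and 1 called by DESeq2. Dnmt3l was at 4.19 and 8.63 CPM on day 1, 2.46 and 0.407 CPM on day 3, and 0.386 and 0.553 CPM on day 7, where Piwil4 was at 5.63 and 5.71 CPM. In the fractions Dnmt3l was at 5.84 and 19.8 CPM in leptotene/zygotene and 4.88 and 5.64 CPM in pachytene, where Piwil4 had 1 or 2 reads.

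In leptotene/zygotene against day 7 testis 14 of the 26 genes rose and 6 fell, with a median of 1.45 against -0.31 for all genes. The share called in either direction was 78.5% over all genes (36.5% higher, 42% lower), so that 20 of 26 called lies near the background. With plain library sizes the split was 8 higher and 10 lower, where the median of all genes was -1.71. Tdrd6 rose by 12.67 ± 0.94 (edgeR adjusted p = 1.95e-06), Tcfl5, a transcription factor of pachytene piRNA loci, by 4.94 ± 0.32, Mael, a nuage protein of the piRNA pathway, by 4.88 ± 0.49, and Dnmt3l by 4.85 ± 0.86. Those that fell were Morc1, Fkbp6, Pnldc1, the trimmer of piRNA 3′ ends, the arginine methylation genes Prmt5 and Wdr77, and Btbd18, listed under its older name Gm13718. Tdrd9, a helicase of the MIWI2 pathway, rose by 1.91 ± 0.34 (adjusted p = 0.000494) while Piwil4 fell. It was at 20.8 and 33.3 CPM on day 1, 9.66 and 7.73 CPM on day 3, 32.6 and 31.1 CPM on day 7, 88.0 and 151 CPM in leptotene/zygotene, and 187 and 238 CPM in pachytene.

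In pachytene against leptotene/zygotene 8 of the 26 genes rose and 1 fell, with a median of 0.85 against -0.06 for all genes, of which 9.03% were called higher and 13.2% lower. Tdrd5, needed for pachytene piRNA precursors, rose by 3.01 ± 0.36 (edgeR adjusted p = 0.00106), Tdrd1 by 2.67 ± 0.37 and Pld6, the mitochondrial nuclease of piRNA biogenesis, by 2.27 ± 0.27. Tex15 fell by 2.05 ± 0.45 (adjusted p = 0.0122). Fewer passed without the second pachytene library, in the list as over all genes. Tdrd1 was at 15.5 and 30.4 CPM on day 1, 9.43 and 17.2 CPM on day 3, 64.8 and 64.6 CPM on day 7, 101 and 87.7 CPM in leptotene/zygotene, and 595 and 603 CPM in pachytene. Its levels keep the stage order of Piwil2 in testis and top out in pachytene as Piwil2 does, but without the lower mean in leptotene/zygotene than on day 7. Mov10l1 did show that lower mean, at 9.0 and 15.2 CPM on day 1, 10.6 and 18.2 CPM on day 3, 69.5 and 67.0 CPM on day 7, 41.8 and 40.9 CPM in leptotene/zygotene, and 83.2 and 115 CPM in pachytene.

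**Figure D5:**
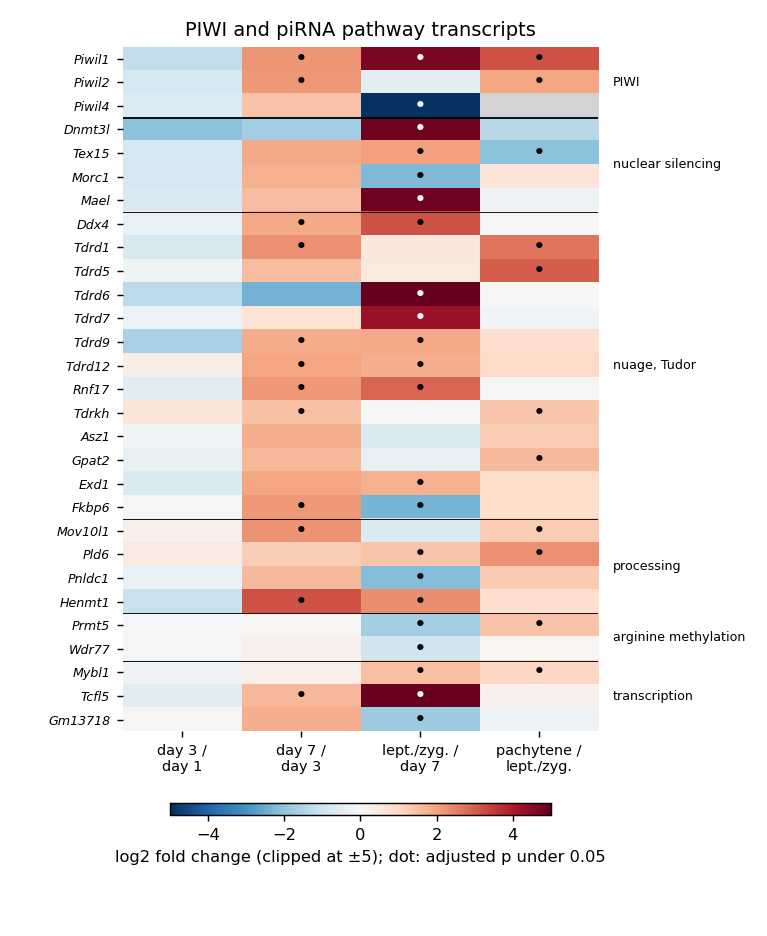
Log2 fold changes of the 3 PIWI genes and 26 piRNA pathway genes in 4 comparisons of consecutive stages, grouped by role (red higher and blue lower in the later stage, clipped at 5 either way; a dot marks an edgeR adjusted p under 0.05; grey, no fold given). The day 7 over day 3 column holds 10 pathway dots, all higher, and the leptotene/zygotene column holds both directions.

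The AGO genes of the same family, whose proteins carry miRNAs, moved in both directions in the fractions. Of all genes, 36.5% were called higher and 42% lower in leptotene/zygotene against day 7, so a call there was common to most. In pachytene against leptotene/zygotene 9.03% were called higher and 13.2% lower. Listed under their older names Eif2c1 to Eif2c4, the 4 AGO genes each had reads at every stage. No member passed in any comparison among the testis stages by edgeR. In leptotene/zygotene against day 7, Eif2c1 (Ago1) fell by 2.93 ± 0.53 (edgeR adjusted p = 0.000599) and Eif2c2 (Ago2), the slicer of the branch, by 2.76 ± 0.69 (adjusted p = 0.00444). Eif2c3 (Ago3) had a log2 fold change of -1.38 ± 0.75 (adjusted p = 0.114). Eif2c4 (Ago4), known from meiotic cells, rose by 1.91 ± 0.29 (adjusted p = 0.000181) and again by 1.76 ± 0.28 in pachytene against leptotene/zygotene (adjusted p = 0.00323). Eif2c4 averaged 10.5 ± 0.323, 8.18 ± 0.742 and 9.61 ± 0.216 CPM on days 1, 3 and 7, 36.8 ± 12.6 CPM in leptotene/zygotene and 123 ± 15.9 CPM in pachytene (SD, n = 2 each). The first day 3 library stood apart for 2 of these genes, with Eif2c2 at 14.4 CPM against 86.4 CPM in the second and Eif2c3 at 3.36 CPM against 25.2 CPM. Replicates also differed by stage over all genes tested. The SD of their log2 difference was 0.633 on day 3, against 0.421 on day 1 and 0.304 on day 7. It was 1.17 in leptotene/zygotene and 0.968 in pachytene.

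Likeness of pattern was measured as the root mean square difference of log2 CPM over the 10 libraries, each gene centred on its own mean, so that 0 is the same course and amplitude. Nearest to Piwil2 were Stk31, a germ cell kinase with a Tudor domain (0.278), Kbtbd8 (0.297), Rbm46, an RNA-binding protein needed for meiosis (0.343), Slc25a31, the testis form of the mitochondrial ADP/ATP carrier (0.368), and Cep85 (0.388). Stk31 averaged 14.6, 12.2 and 40.6 CPM on days 1, 3 and 7, 40.0 CPM in leptotene/zygotene and 141 CPM in pachytene. Nearest to Piwil1 were Prok2, a secreted prokineticin (0.643), Glipr1l2 (0.647), Shcbp1l (0.669), Ptpn20 (0.674) and 4930524B15Rik (0.736). Nearest to Piwil4 were Mina (0.354), Ptprz1, a receptor phosphatase (0.380), Pdp2 (0.385), Crlf3 (0.403) and Pprc1 (0.412).

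On the same measure, which counts amplitude as well as course, Piwil2 and Piwil4 differed by 2.44, Piwil1 and Piwil2 by 2.76 and Piwil1 and Piwil4 by 5.17. Prok2 averaged 52.5 CPM in leptotene/zygotene and 190 CPM in pachytene, against 0.272 to 0.635 CPM on days 1 to 7, so it shared the late rise of Piwil1 from a lower start. Pprc1 averaged 108, 99.4 and 173 CPM on days 1, 3 and 7, 10.6 CPM in leptotene/zygotene and 14.1 CPM in pachytene. It was thus also lower in the fractions than in testis, at a higher level than Piwil4. With 1 or 2 reads in each fraction library, the log2 CPM of Piwil4 there rests largely on the prior count of 2. The depth of its drop, and so its nearest genes, are bounded by that floor. All 10 libraries share the contrast of whole testis with fractions, so likeness over them is a description.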

How the data were processed

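RNA-seq counts per gene were analysed in 10 libraries; the 10 small RNA libraries were not used here. The values deposited are raw counts per gene, all whole, whose totals differ between libraries. The submitters' processing notes name the tools edgeR 3.6.8, HTSeq 0.6.1, Bowtie 0.12.7 and BWA 0.7.8 and the build mm9, with roles and strand setting not given in the sources used here. The 5 HTSeq summary rows (44.7% to 64.5% of reads per library) were left out of library sizes and tests.

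All libraries were fitted together by stage with edgeR 4.0.16 (R 4.3.3, filterByExpr at a minimum count of 10, TMM, two-sided quasi-likelihood F test), which left 5 residual degrees of freedom. Standard errors were derived from F, as the size of the log2 fold change divided by its square root. Likeness used log2 CPM with a prior count of 2. Counting intervals and the floor of 3 counts cover counting error only. The fit was also run on data simulated with the same dispersion for every gene and stage. Replicate spread in the real libraries differed between stages, so that run does not show how the fit behaves on them. The 3 members, the lists and the rule for named genes (the members, 5 nearest genes each, up to 4 list genes per comparison, 6 fixed pathway genes and the AGO genes) were chosen with earlier results of these data known. Further list members that fell, and library values of the AGO genes, were named after their values were seen. Spocd1 and Rhox5, from the lists, were not analysed here. Older symbols were matched through RefSeq synonyms. Per RefSeq, no gene that overlaps a member is in the count table. The alternatives were other scalings, no filter, DESeq2 1.42.0, fewer libraries, a replicate block, each library left out and, added later, Dazl as a denominator.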

Additional observations from a re-analysis of the deposited data

How the results depend on the processing

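Of the results for the 3 genes, the rises of Piwil1 in both fractions, the rise of Piwil2 in pachytene and the fall of Piwil4 in leptotene/zygotene kept their direction and their call under every alternative run, each library left out included. With each library left out in turn, Piwil1 ranged from 1.92 to 2.23 and Piwil2 from 1.73 to 2.39 on day 7 against day 3, and Piwil4 from -1.19 to 0.54 on day 3 against day 1. Piwil2 on day 7 against day 3 was 2.13 with upper-quartile factors (adjusted p = 0.052), just short of the threshold. Other alternatives called what the fit of all stages did not. On day 7 against day 1 Piwil2 passed in DESeq2 (1.23), with the compared stages only (1.24) and with the whole-testis libraries only (1.31). Piwil1 passed with the compared stages only (0.95). Over all genes DESeq2, the compared stages and the whole-testis libraries called 1521, 6800 and 2962 in that comparison, against 567 in the main fit. Piwil4 on day 7 against day 3 passed with the compared stages only (1.42), where 1019 genes were called, against 252. Piwil2 was lower in leptotene/zygotene than on day 7 with plain library sizes (-1.84), where 9928 genes were called lower, against 7082. The cause of these further calls was not tested. With Dazl in place of Ddx4, an alternative chosen after seeing the data, the log2 step of Piwil2 per marker read in leptotene/zygotene against day 7 was 1.69, against -3.65. On day 7 against day 3 those of Piwil1 and Piwil2 were -0.11 and -0.11, against 0.28 and 0.28. No other of these steps changed sign, but sizes depended on the marker. Between the stage means of leptotene/zygotene and day 7, Piwil1 was 2.97 times higher per Ddx4 read and 133 times higher per Dazl read. Piwil4, with 1 read in each leptotene/zygotene library, was 158 times lower per Ddx4 read and 5.52 times lower per Dazl read. The median of all genes in leptotene/zygotene against day 7 was -0.31 with TMM, 0.01 with median-ratio, -0.70 with upper-quartile factors and -1.71 with plain library sizes, and Piwil1 stood at 4.70, 5.05, 4.38 and 3.32 with the same 4.

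The count of piRNA pathway genes past the test depended on the fit. On day 7 against day 3 it was 10, and 20 in DESeq2, 19 with the compared stages only and 21 with the whole-testis libraries only. On day 7 against day 1 it was 9, and 15, 22 and 17 under the same alternatives. All genes called there numbered 567, and 1521, 6800 and 2962. On day 3 against day 1 DESeq2 called 1, and 79 over all genes. In pachytene against leptotene/zygotene it was 9, with 17 for plain library sizes and 3 for the compared stages only. All genes called there numbered 3744, with 4836 and 930. With each library left out it ran from 0 to 16, 0 to 14 and 5 to 10 in the 3 comparisons that had calls and moved. Over all genes, day 7 against day 3 had 252 calls, none without either day 7 library, 965 in DESeq2 and 2126 with the whole-testis libraries only.

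The labels do not say that a replicate number pairs libraries. Checked all the same, the deviations of same-numbered libraries correlated at 0.64 between the 2 fractions and at -0.11 to 0.02 between other stages. With the replicate number as a block, no call of the 3 genes changed. The pathway counts were 11, 12, 21 and 10 from day 7 against day 3 onward, where 267, 593, 13207 and 3663 of all genes were called. The length alternative for ratios was not run, since transcript lengths were not used here. Depth limits Piwil4 in the fractions, where 3 counts equal 0.301 to 1.46 CPM.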
